A study of Mus musculus with 6 samples.

Results

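The genes described here are the receptors for glucocorticoids and mineralocorticoids, Nr3c1 and Nr3c2, with 6 genes that glucocorticoids are known to induce: Fkbp5, Tsc22d3, Zbtb16, Sgk1, Klf9 and Klf15. They are 8 of the 21883 protein-coding genes of RefSeq (build GRCm38.p6, the assembly behind mm10), and every called peak overlapping a gene or the 20 kb on either side of it was assigned to that gene. Zbtb16 was chosen by the measured extent of its acetylated domain in these libraries, so that extent is a description and is not tested. H3K27ac, acetylation of histone H3 at lysine 27, marks active promoters and enhancers. It was mapped by CUT&RUN, in which a nuclease tethered by the antibody cuts out the marked chromatin, in left ventricular nuclei sorted with an antibody to PCM-1, a protein of cardiomyocyte nuclei. The mice were FVB animals aged 8 to 12 weeks. Libraries labelled HOM came from mice with a CRISPR deletion of the natriuretic peptide genes Nppa and Nppb, and libraries labelled WT from mice with none given, at 3 libraries a genotype. The protocols also name Myh6-MerCreMer, nTnG and Sun1/sfGFP alleles bred on FVB/N, without saying which mice, if any, carried them here. How many founder lines there were, and whether each library is a separate mouse, is not given, so a p-value covers only the scatter among these libraries, part of which may be technical. In such a design 0.1 is the lowest p that a two-sided exact permutation test can return.

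Both receptors are nuclear receptors that wait in the cytoplasm in a chaperone complex, move to the nucleus when a steroid binds, and act on DNA through a shared palindromic element. Glucocorticoids occupy both of them in cells that lack the inactivating enzyme encoded by Hsd11b2, and cardiomyocytes are such cells. Fkbp5 is a co-chaperone that lowers the affinity of the glucocorticoid receptor for its ligand. Tsc22d3 encodes the anti-inflammatory leucine zipper protein GILZ, Zbtb16 the zinc finger repressor PLZF, and Sgk1 a kinase that acts on ion transport. Klf9 and Klf15 are Krüppel-like transcription factors, and Klf15 is known in heart for control of amino acid and lipid use and for restraint of hypertrophy.

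The libraries differed widely in how much was called. HOM replicates 1, 2 and 3 held 48102, 1462 and 15184 peaks, and WT replicates 1, 2 and 3 held 21340, 72362 and 106605. HOM replicate 2 covered 0.296 Mb, against 4.54 to 55.7 Mb in the other 5 libraries, and most genes had no peak in it. Values are therefore given per library and as the covered share, which is the length under peaks in a gene's window per Mb under peaks in that library. The interval of the deleted genes held 0 peaks in each HOM library and 1, 2 and 4 peaks in WT replicates 1, 2 and 3. All 8 cardiomyocyte markers had a peak in each library other than HOM replicate 2, where none had one. Some markers of other cells also had peaks, and their part in the results was not tested. Of 6 fibroblast markers, 0 to 1 had a peak in HOM libraries and 0 to 3 in WT libraries, over a summed 0 to 0.12 kb in HOM and 0 to 1.62 kb in WT, with Col3a1, Dcn and Pdgfra at 0 throughout. Of 6 endothelial markers, 1 to 2 had a peak in HOM libraries and 2 to 4 in WT libraries, over 0.057 to 6.54 kb in HOM and 3.08 to 14.9 kb in WT. Egfl7 had a peak in all 6 libraries and Pecam1 in 5, with Tie1 and Emcn at 0. Of 6 smooth muscle and pericyte markers, 0 to 3 had one in HOM and 3 to 5 in WT, over 0 to 2.29 kb in HOM and 1.11 to 14.999 kb in WT, with Cspg4 in 5 libraries and Rgs5 at 0. Of 6 immune markers, 0 to 3 had one in HOM and 2 to 3 in WT, over 0 to 4.70 kb in HOM and 0.471 to 14.8 kb in WT, with Ptprc, Csf1r and Lyz2 at 0, Spi1 and Cd68 with a peak in 5 libraries each and Cd3e in 3. The lists also split by their Y chromosome, where 112 peaks lay below 80 Mb in HOM replicate 1 and 111 in WT replicate 1, against 1 to 5 in the other libraries. In bulk nuclei, fewer nuclei with a mark and less of the mark per nucleus cannot be told apart.

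Acetylation was found at 7 of the 8 genes in each library other than HOM replicate 2, and the exception was Sgk1. In HOM replicates 1, 2 and 3, peaks lay at 7, 2 and 7 of the 8 genes, where 47.1%, 3.13% and 25.2% of all protein-coding genes had one. In WT replicates 1, 2 and 3 they lay at 7, 8 and 8, where 31.7%, 57.4% and 66.1% of all genes had one. The same 7 genes had a peak in at least 5 libraries, as did 21% of all genes. The windows of the 8 genes are longer than most, with a median of 138 kb against 57.2 kb over all genes, and a longer window can hold more peaks. For that reason the covered length per kb of window is also given below as a percentile among the 14814 genes with a peak in any library.

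Zbtb16 had the greatest covered length of the 8 genes in each library other than HOM replicate 2. It spans chr9:48651797-48836225. In HOM replicates 1, 2 and 3 the window held 73, 1 and 43 peaks with a covered length of 29.2, 0.057 and 14.3 kb. WT replicates 1, 2 and 3 had 47, 73 and 139 peaks, covering 17.4, 28.2 and 102.7 kb. The highest value was that of WT replicate 3, the longest list, and HOM replicate 1 lay among the WT values. Joined over gaps up to 10 kb, the longest domain measured 87.0, 0.057 and 52.3 kb in HOM replicates 1, 2 and 3, and 82.9, 66.4 and 191.6 kb in WT replicates 1, 2 and 3. By extent this domain ranked 23 of 12421 in HOM replicate 1 and 15 of 5999 in HOM replicate 3, and 7 of 7654, 115 of 16727 and 14 of 20898 in WT replicates 1, 2 and 3. It thus stood within the top 0.688% of stitched domains in each library other than HOM replicate 2. In the same libraries the gene's covered length per kb of window stood between the 94.7 and 99.7 percentile.

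**Figure D1:**
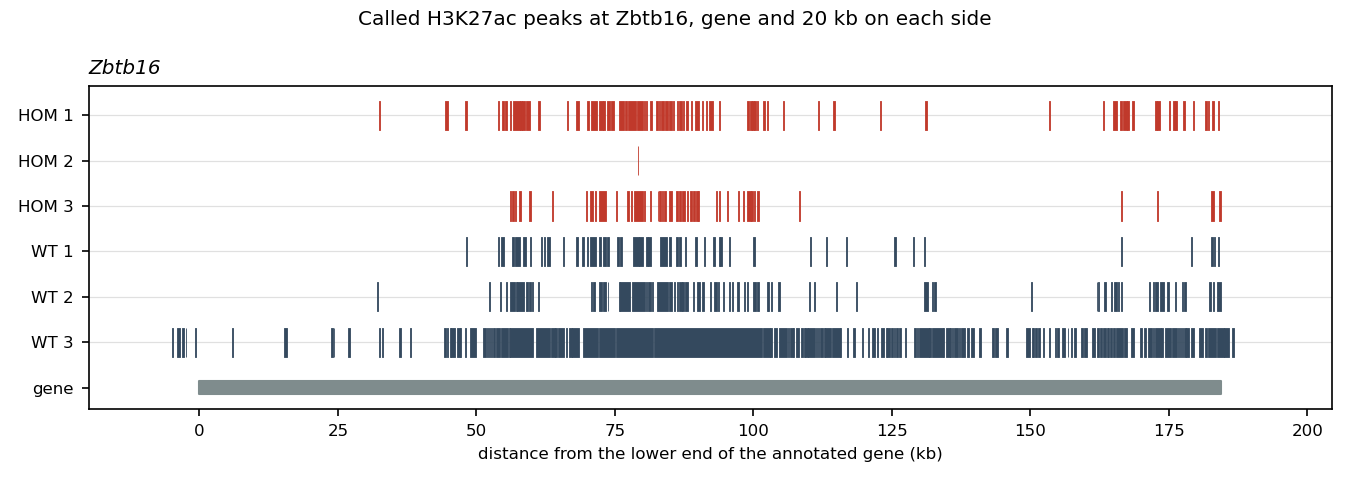
Peaks called at Zbtb16 in each library (HOM in red above WT in dark blue; numbers are replicates), by distance in kb from the lower end of the annotated gene (grey bar). In HOM replicates 1 and 3 and WT replicates 1 and 2 the peaks lie densest in the middle of the gene with a second group at its upper end, and in WT replicate 3 most of the gene is covered.

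The Zbtb16 domain was made of many peaks inside the gene, not of peaks around it. Touching peaks of the 6 libraries merged into 136 regions, of which 129 overlapped the gene and 7 lay outside it. The 7 outer regions were called in WT replicate 3 alone. Of the regions, 8 were called in at least 5 libraries. Between 55.8 and 82.1 kb above the lower end of the gene 5 of these began, the widest of them 19417 bp long at chr9:48733901-48753317. The region at chr9:48726907-48733728 was the only one called in all 6 libraries, and it held the single peak of HOM replicate 2, 57 bp long. The other 3 began 164885, 181990 and 183653 bp above the lower end, and the last of them, at chr9:48835450-48836724, spans the upper end of the gene. Regions called in HOM but in no WT library numbered 2, each in 1 library, and 1 region, at 48761660, was found in every WT list but in none from HOM. HOM replicates 2 and 3 had the shortest lists, and the share of such regions over all genes was not computed. These counts are therefore not read as a genotype difference.

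At single peaks, too, Zbtb16 ranked high by the authors' fold enrichment. Its strongest peak ranked 313 of 48102 in HOM replicate 1 and 297 of 15184 in HOM replicate 3, with folds of 9.06 and 7.57. In WT replicates 1, 2 and 3 it ranked 488 of 21340, 2756 of 72362 and 77 of 106605, with folds of 7.26, 8.46 and 19.3. Fold values come in steps, and a rank here is the best of its tie. The strongest peak, ties included, lay between positions 48723905 and 48736402 in all of these libraries, in the middle of the gene. The median peak there was 220 to 379 bp wide outside HOM replicate 2, and the widest peak of WT replicate 3 measured 19417 bp. The domain was thus a run of separate peaks in HOM replicates 1 and 3 and WT replicates 1 and 2, and in part a fused block in WT replicate 3.

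Among all protein-coding genes, ordered by the mean rank of their longest stitched domain over the 6 libraries, Zbtb16 stood at position 26 of 21883. The 5 genes nearest to it in that order were Cuedc1, 4930467E23Rik, Tns1, Gab1 and Rbpms. This likeness is one of domain extent alone. Without HOM replicate 2 Zbtb16 stood at position 18, next to Synpo2. Tns1, a focal adhesion gene, had domains of 170.8, 0.057 and 19.9 kb in HOM replicates 1, 2 and 3, and of 43.1, 220.6 and 222.6 kb in WT replicates 1, 2 and 3. Gab1, an adaptor of receptor tyrosine kinases, had 73.2, 0.060 and 56.3 kb in HOM, and 66.6, 99.8 and 85.6 kb in WT.

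**Figure D2:**
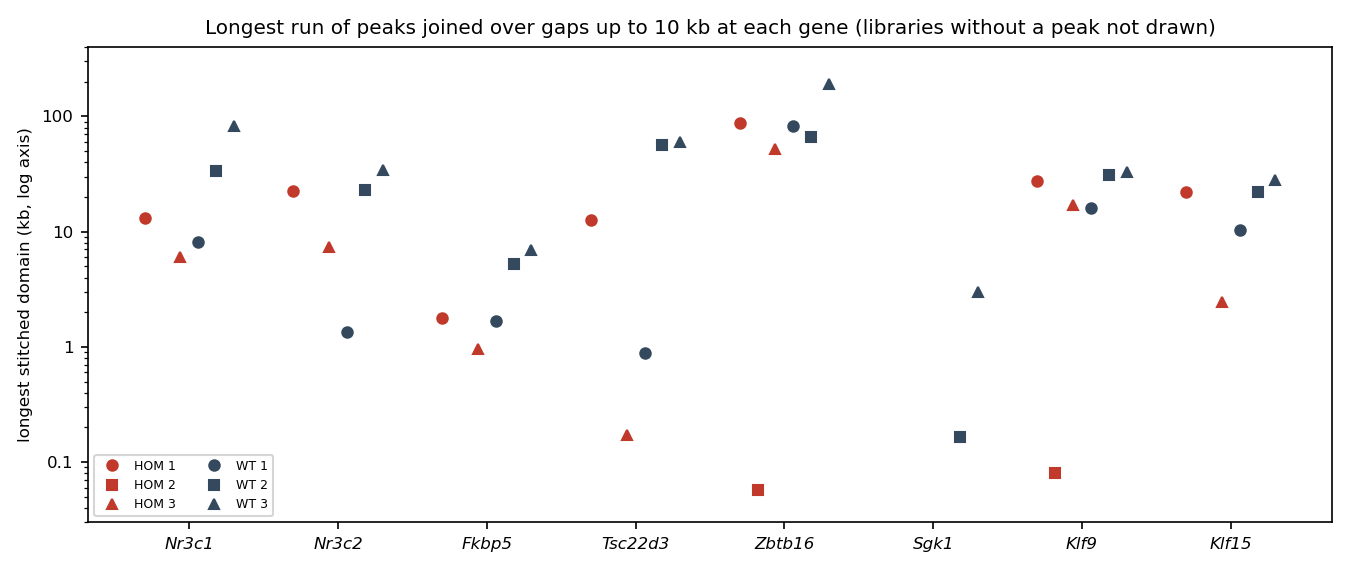
Longest stitched domain at each gene in kb on a log axis, with HOM libraries in red left of WT libraries in dark blue and a symbol per replicate; libraries with no peak at a gene are not drawn. Zbtb16 is highest in each library other than HOM replicate 2, and Sgk1 has a value only in WT replicates 2 and 3.

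Both receptor genes were acetylated within the gene. Nr3c1, the glucocorticoid receptor gene, spans chr18:39410545-39519421. HOM replicates 1, 2 and 3 had 17, 0 and 5 peaks covering 6.52, 0 and 1.10 kb. WT replicates 1, 2 and 3 had 8, 32 and 45 peaks covering 1.98, 13.1 and 24.5 kb. The genotypes overlapped, with HOM replicate 1 above WT replicate 1. Of 55 merged regions, 53 overlapped the gene, and 2 were called in each library other than HOM replicate 2. These are chr18:39437300-39440012, and the 5434 bp at chr18:39480737-39486170. The longest stitched domain was 13.2 and 6.06 kb in HOM replicates 1 and 3, and 8.20, 33.6 and 82.5 kb in WT replicates 1, 2 and 3.

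Nr3c2, the mineralocorticoid receptor gene, is the longest of the 8 and spans chr8:76898083-77245012. It had 25, 0 and 10 peaks covering 8.38, 0 and 2.17 kb in HOM replicates 1, 2 and 3, and 11, 55 and 64 peaks covering 2.54, 24.1 and 36.7 kb in WT replicates 1, 2 and 3. Its acetylation was split over separate islands. Of 68 merged regions, 5 were called in each library other than HOM replicate 2, and these began 72958, 145572, 234019, 235120 and 333389 bp above the lower end of the gene. None of these 5 lay at the annotated start, although HOM replicate 1 and WT replicates 2 and 3 had a peak within 1 kb of it. Regions found in every WT list but in none from HOM numbered 2, at 76898443 and 77032941, and 1 was found in HOM replicate 3 but in no WT list. As at Zbtb16, these counts have no share over all genes beside them and are not read as a genotype difference. The longest domain was 22.5 and 7.30 kb in HOM replicates 1 and 3, and 1.34, 23.0 and 34.5 kb in WT replicates 1, 2 and 3, short beside a gene of 346.9 kb. The upper flank reaches into Arhgap10, and the 2 peaks of WT replicate 3 beyond the upper end of Nr3c2 lay inside that gene.

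**Figure D3:**
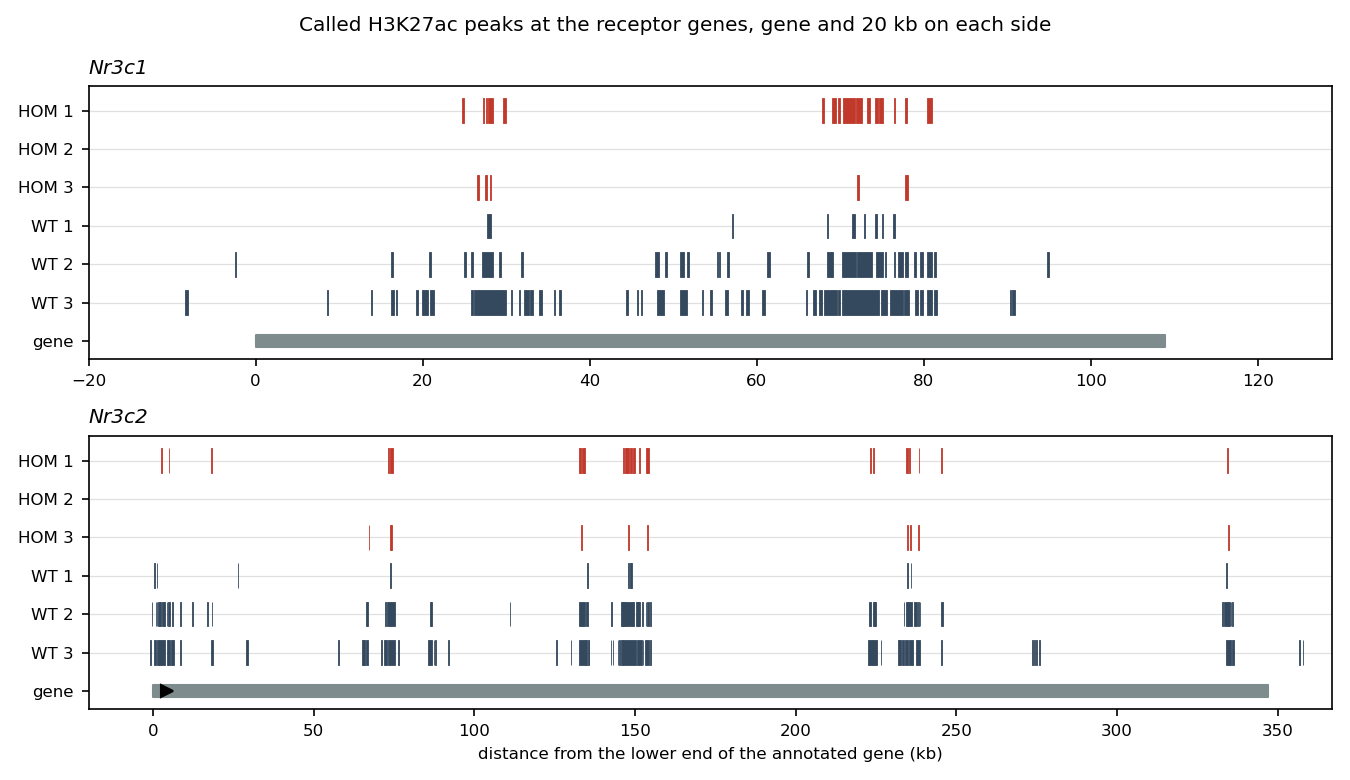
Peaks called at Nr3c1 and Nr3c2 in each library (HOM in red above WT in dark blue), by distance in kb from the lower end of the gene (grey bar; arrow, annotated start, drawn for Nr3c2 only). Peaks gather in 2 clusters in Nr3c1 and in separate islands along Nr3c2, at like positions in HOM replicates 1 and 3 and the WT libraries.

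By share of the library, the receptor genes lay high in the distribution. In the 5 libraries with peaks, the covered share of Nr3c1 stood between the 91.6 and 97.1 percentile and that of Nr3c2 between the 95.5 and 98.9 percentile. Per kb of window these ranges were 84.1 to 91.8 for Nr3c1 and 75.8 to 85.0 for Nr3c2. The lower second range of Nr3c2 goes with its long window. The strongest peak of Nr3c1 was within the top 8.52% of its list by fold in 4 libraries, and at 47.6% in HOM replicate 3. That of Nr3c2 was within the top 13.7% in all 5.

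Fkbp5, the receptor co-chaperone, showed the most compact pattern. It spans chr17:28398753-28486149 on the minus strand, and its annotated start is at the upper end. HOM replicates 1, 2 and 3 had 3, 0 and 2 peaks covering 1.43, 0 and 0.526 kb, and WT replicates 1, 2 and 3 had 2, 5 and 4 peaks covering 1.25, 1.88 and 5.93 kb. All of them fell in 4 merged regions inside the gene, and 1 region, chr17:28419101-28422378, was called in each library other than HOM replicate 2. Its nearer edge lay 63771 bp downstream of the annotated start. The other 3 regions were called in WT replicate 3, and 1 of them in WT replicate 2 as well. No library had a peak within 1 kb of the start itself. By fold this cluster held strong peaks, the best of which ranked within the top 7.91% and 9.69% of the list in HOM replicates 1 and 3, and within the top 5.13%, 1.56% and 0.454% in WT replicates 1, 2 and 3. The gene's covered share, in contrast, stood between the 66.6 and 89.3 percentile, and per kb of window between the 52.6 and 82.3 percentile.

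Klf9 and Klf15 were acetylated around their starts and at clusters outside the gene. Klf9 spans chr19:23141226-23168129 on the plus strand. HOM replicates 1, 2 and 3 had 22, 1 and 10 peaks covering 8.19, 0.080 and 3.34 kb. WT replicates 1, 2 and 3 had 10, 21 and 22 peaks covering 2.83, 15.1 and 20.8 kb. The region chr19:23132511-23138586, which ends 2640 bp upstream of the start and overlaps the noncoding gene 2410080I02Rik, was called in all 6 libraries. The regions that begin 399 and 7334 bp downstream of the start were called in each library other than HOM replicate 2. Klf9 thus combined an upstream cluster with peaks in the first part of the gene. Its longest domain joined both, at 27.6 and 17.2 kb in HOM replicates 1 and 3 and at 16.0, 31.2 and 33.0 kb in WT replicates 1, 2 and 3.

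Klf15 spans chr6:90461043-90491803 on the plus strand. It had 20, 0 and 8 peaks covering 7.74, 0 and 2.42 kb in HOM replicates 1, 2 and 3, and 13, 12 and 24 peaks covering 4.57, 8.63 and 18.03 kb in WT replicates 1, 2 and 3. Of its 23 merged regions, 5 were called in each library other than HOM replicate 2. One lay upstream, 9404 bp below the lower end of the gene. A pair lay at the start of the gene, 1 reaching to just before the annotated start and the other beginning 1198 bp after it. The other two formed a cluster beyond the far end of the gene, beginning 13776 and 16672 bp above it, at chr6:90505579-90508405 and chr6:90508475-90509915. No other RefSeq gene lies in the Klf15 window. The strongest peak of the window lay in this far cluster in HOM replicate 1 and in WT replicates 2 and 3, and in HOM replicate 3 a peak there tied with one at the start. Per kb of window, Klf9 stood between the 97.4 and 99.0 percentile and Klf15 between the 94.3 and 99.0 percentile in the 5 libraries other than HOM replicate 2.

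Tsc22d3, on the X chromosome at chrX:140539528-140600522, differed widely between WT libraries. HOM replicates 1, 2 and 3 had 7, 0 and 2 peaks covering 1.41, 0 and 0.342 kb. WT replicates 1, 2 and 3 had 2, 32 and 68 peaks covering 0.354, 10.1 and 27.8 kb. WT replicate 1 thus lay with the HOM libraries and far below the other two of its genotype. The domain measured 12.6 and 0.171 kb in HOM replicates 1 and 3, and 0.891, 56.4 and 60.3 kb in WT replicates 1, 2 and 3. By fold, the best peak ranked at 45.1% and 47.6% from the top in HOM replicates 1 and 3 and at 75.6%, 6.57% and 10.4% in WT replicates 1, 2 and 3. Per kb of window, its covered length stood between the 63.5 and 97.5 percentile in the libraries other than HOM replicate 2. Of 67 merged regions none was called in more than 4 libraries. HOM replicate 1 and WT replicate 1 were the libraries with many Y chromosome peaks, and the part of that in these X-linked values was not tested.

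Sgk1, at chr10:21882184-21999903, had almost no called acetylation. HOM libraries had 0 peaks in its window, and WT replicates 1, 2 and 3 had 0, 1 and 3 peaks, covering 0, 0.165 and 0.611 kb. In WT replicates 2 and 3 its covered share stood at the 17.0 and 21.0 percentile of genes, and its best peaks ranked 67763 of 72362 and 48586 of 106605 by fold. The 3 peaks of WT replicate 3 began 106, 228 and 488 bp downstream of an annotated start, with 6 starts annotated. An absent peak says that no stretch passed the authors' threshold in that library, not that the gene lacked the mark.

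**Figure D4:**
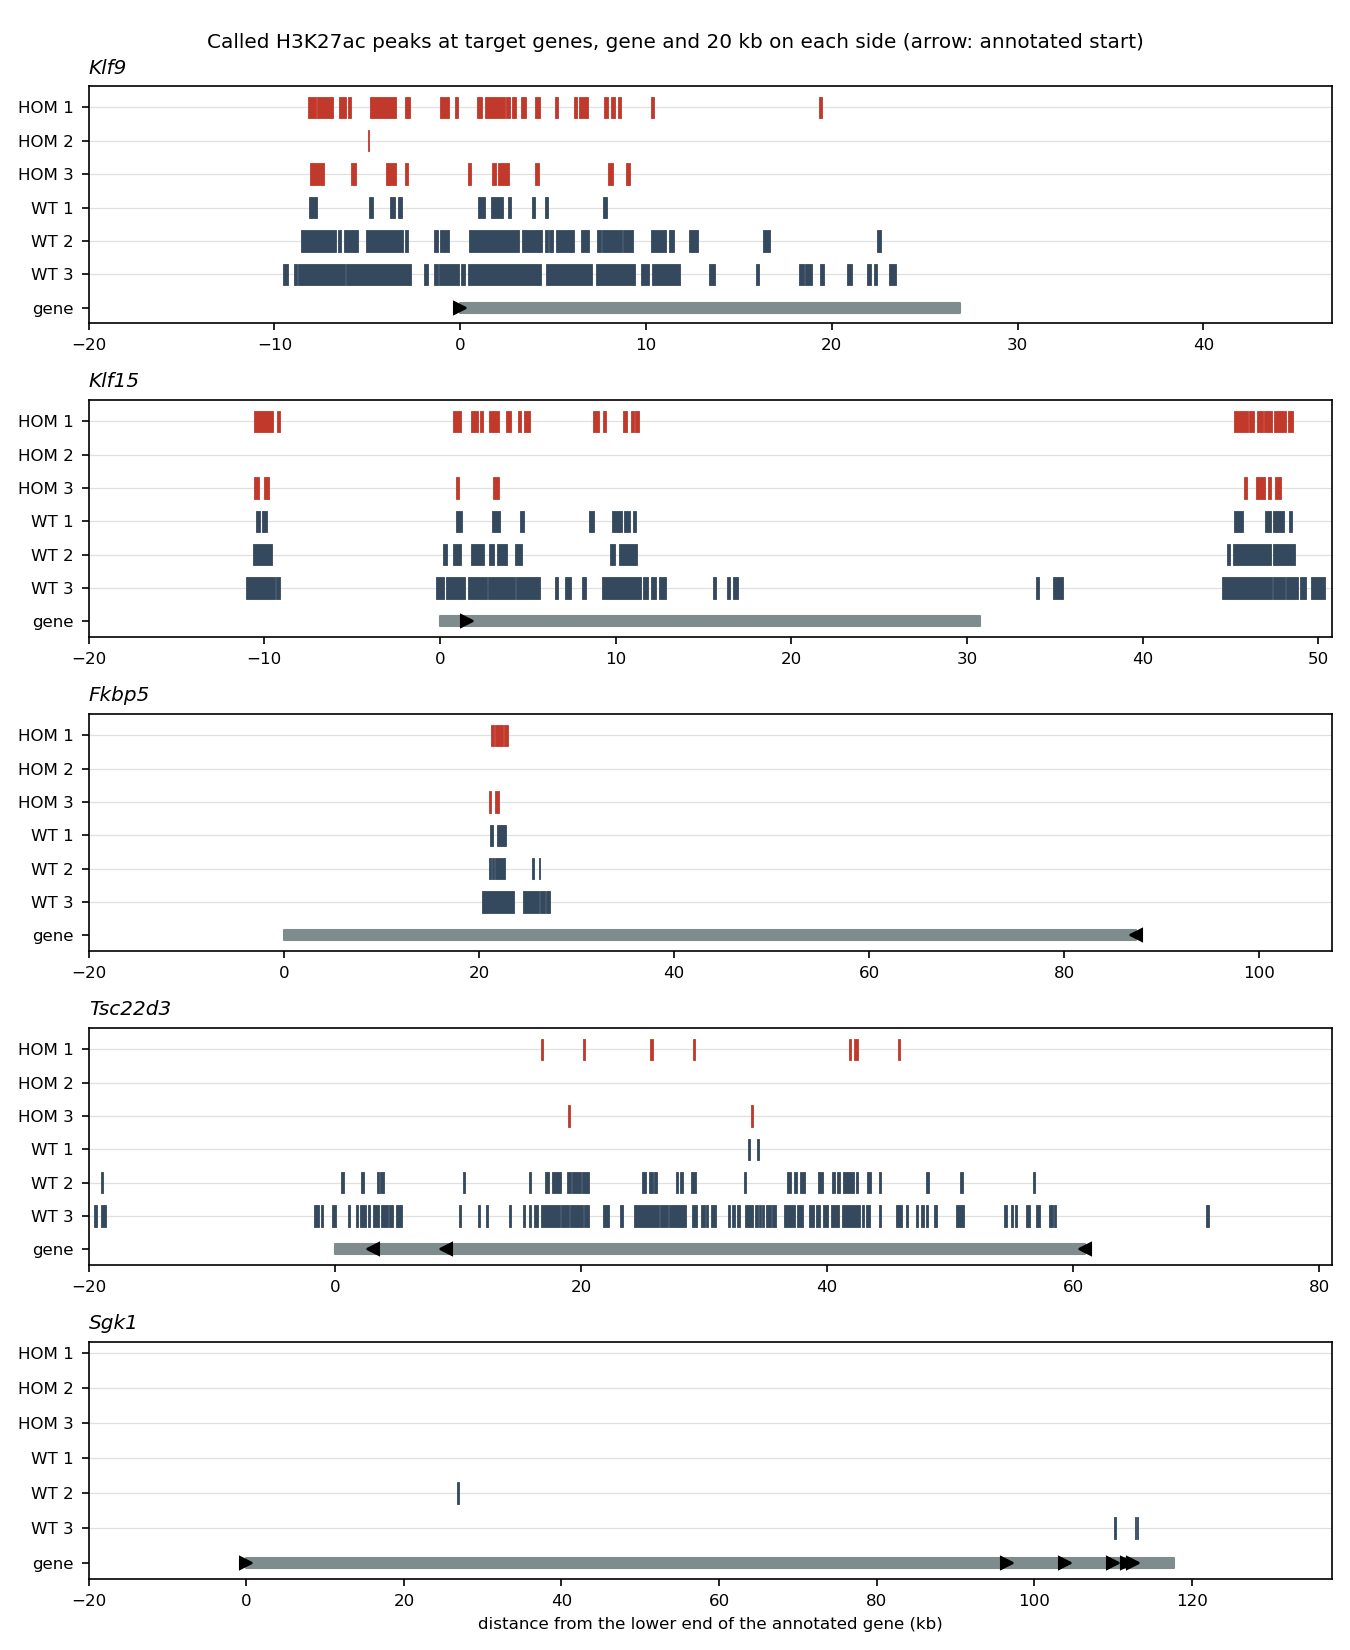
Peaks called at 5 induced genes in each library (HOM in red above WT in dark blue), by distance in kb from the lower end of the gene (grey bar; arrows, annotated starts with their direction). Klf9 and Klf15 show clusters at the start and outside the gene, Fkbp5 a single cluster inside it, Tsc22d3 many peaks in WT replicates 2 and 3 and few in the other libraries, and Sgk1 hardly any.

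RefSeq promoter windows, 250 bases before to 50 after a start, were read for 6 of the 8 genes, in 13 windows. Nr3c1 and Zbtb16 had no window in the table. No window had a peak in 3 or more libraries, so the 4 shown here were chosen after the values were seen. They set the starts of Klf9 and Klf15, flanked by peaks, beside that of Fkbp5 and the Sgk1 start at 21993890. No library had a peak within 1 kb of these last starts. Sgk1 has 6 annotated starts, and WT replicate 3 had a peak within 1 kb of those at 21992223 and 21994666. Peaks lay within 1 kb of the Klf9 and Klf15 starts in each library other than HOM replicate 2, but on the windows themselves in only 2 libraries for Klf9 (HOM replicate 1 and WT replicate 3) and 1 for Klf15 (WT replicate 3). Of 21262 promoter windows of protein-coding genes, 10.1%, 0.0847% and 2.64% overlapped a peak in HOM replicates 1, 2 and 3, and 3.57%, 17.8% and 31.0% in WT replicates 1, 2 and 3. The sequences run 5′ to 3′ on the strand of the gene, from RefSeq (GRCm38.p6), and capitals mark the 6-base arms AGAACA and TGTTCT of the glucocorticoid response element, searched on both strands.
Klf9, chr19:23140976-23141275, plus strand: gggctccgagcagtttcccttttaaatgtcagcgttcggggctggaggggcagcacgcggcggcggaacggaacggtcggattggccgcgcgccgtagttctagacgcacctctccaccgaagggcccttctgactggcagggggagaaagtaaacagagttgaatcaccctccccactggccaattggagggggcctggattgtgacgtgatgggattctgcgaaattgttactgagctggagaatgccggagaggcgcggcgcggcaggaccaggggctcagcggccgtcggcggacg
Klf15, chr6:90462326-90462625, plus strand: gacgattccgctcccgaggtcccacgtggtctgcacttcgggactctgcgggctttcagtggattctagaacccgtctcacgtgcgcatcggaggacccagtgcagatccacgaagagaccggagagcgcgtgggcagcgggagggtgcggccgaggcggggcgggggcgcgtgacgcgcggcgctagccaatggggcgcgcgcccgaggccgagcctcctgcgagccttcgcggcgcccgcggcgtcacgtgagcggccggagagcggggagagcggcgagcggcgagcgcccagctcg
Fkbp5, chr17:28486100-28486399, minus strand: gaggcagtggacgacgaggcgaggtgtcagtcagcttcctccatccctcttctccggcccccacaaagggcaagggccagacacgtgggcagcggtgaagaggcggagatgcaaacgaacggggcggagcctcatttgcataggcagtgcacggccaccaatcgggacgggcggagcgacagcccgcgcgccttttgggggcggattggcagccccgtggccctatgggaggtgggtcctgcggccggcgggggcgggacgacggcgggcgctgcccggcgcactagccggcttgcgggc
Sgk1, chr10:21993640-21993939, plus strand: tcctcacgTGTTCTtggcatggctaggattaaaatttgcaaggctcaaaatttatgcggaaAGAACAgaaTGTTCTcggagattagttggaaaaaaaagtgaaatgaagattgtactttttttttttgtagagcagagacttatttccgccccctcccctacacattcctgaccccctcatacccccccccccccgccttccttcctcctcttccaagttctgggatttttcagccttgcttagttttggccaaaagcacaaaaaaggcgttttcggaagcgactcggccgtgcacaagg

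The windows of Klf9, Klf15 and Fkbp5 were rich in G and C, at 63.3%, 73.3% and 70.7%, against a median of 56.3% over all windows, and held neither arm. The 6 windows of Sgk1 ran from 45.0% to 69.7%, and the one with 69.7%, at chr10:21994416-21994715, held neither arm. The Sgk1 window shown above had 46.3% and 3 arms, of which 2 form the full palindrome. This is AGAACA and TGTTCT with any 3 bases between them, which reads the same on both strands. Here it is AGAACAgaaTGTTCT. This 15-base match lies at chr10:21993701-21993715 and ends 175 bases before the start. Only 2 of the 21262 windows, or 0.00941% (95% Wilson interval 0.00258 to 0.0343%), held the full motif, and the other window belongs to Acnat2. With 1 mismatch allowed in the fixed letters, Sgk1 remained the only one of the 6 genes with a match, at 1 of 13 windows, beside 0.169% of all windows. At least 1 arm was in 4 of the 13 windows, in Sgk1 and Tsc22d3, beside 16.2% of all windows. No library had a peak on this Sgk1 window. A match is a description of letters and shows no binding, and windows without one say nothing of receptor binding elsewhere in the gene.

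With the full lists of all 6 libraries, the genotypes could not be separated at any of the 8 genes. The covered shares of HOM and WT overlapped at 8 of 8 genes, where 9.28% of the 14814 genes with a peak were lower in all HOM libraries than in all WT libraries and 0.257% were higher. Without HOM replicate 2 the members still overlapped at all 8 genes, and those shares were 9.62% and 4.48%. The covered share was lower on average in HOM at 7 of the 8 genes, as it was at 87.1% of all genes tested, so the direction is that of the background. The median difference, HOM minus WT, was -100.4 bp per Mb for the 8 genes and -11.6 over all genes, and -11.8 and -5.52 without HOM replicate 2. The difference is absolute, so a gene with a larger share can show a larger one, here and in the lists below. The median share of the 8 genes stood between the 94.0 and 96.7 percentile outside HOM replicate 2, so these sizes do not show a stronger lowering there. Across 8 comparisons, the exact permutation p ran from 0.2 to 0.9, and after Benjamini-Hochberg adjustment over all 14814 genes from 0.806 to 1.

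The covered share of Zbtb16 was 1699, 192.8 and 3145 bp per Mb in HOM replicates 1, 2 and 3, and 2605, 892.8 and 1844 in WT replicates 1, 2 and 3. HOM replicate 3 was the highest of all 6, and HOM replicate 2, with its single peak, the lowest. Means were 1679 ± 1476 in HOM and 1781 ± 858 in WT (SD, n = 3 each), so HOM minus WT was -102.0 (exact permutation p = 0.9). With HOM replicate 2 left out, it was 641.0 (exact permutation p = 0.5). For Klf9, the shares were 476.2, 270.6 and 735.6 bp per Mb in HOM, and 423.5, 478.3 and 374.2 in WT. It was the only one of the 8 genes with a higher HOM mean, 494.1 ± 233.0 against 425.4 ± 52.1 in WT (SD, n = 3 each), so HOM minus WT was 68.8 (exact permutation p = 0.8), and -52.0 without HOM replicate 3. For Klf15 the difference was -98.9 (HOM 327.7 ± 286.9, WT 426.6 ± 223.5, SD, n = 3 each, exact permutation p = 0.7), and 65.0 without HOM replicate 2.

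The receptor genes had lower HOM means, by less than or about the SD of the HOM libraries and by more than that of the WT libraries. Nr3c1 had 379.0, 0 and 242.9 bp per Mb in HOM, and 295.8, 413.9 and 439.6 in WT. The difference was -175.8 (HOM 207.3 ± 192.0, WT 383.1 ± 76.7, SD, n = 3 each, exact permutation p = 0.2), and -72.2 without HOM replicate 2. Nr3c2 had 487.1, 0 and 477.6 in HOM, and 380.2, 763.3 and 658.5 in WT. Its difference was -279.1 (HOM 321.6 ± 278.5, WT 600.7 ± 198.0, SD, n = 3 each, exact permutation p = 0.3), and -118.3 without HOM replicate 2. In both, HOM replicate 1 lay above WT replicate 1, and the zero of HOM replicate 2 set the lower end. For Tsc22d3 the difference was -237.9 bp per Mb (HOM 52.4 ± 45.5, WT 290.3 ± 224.3, SD, n = 3 each, exact permutation p = 0.3), -356.6 without WT replicate 1 and -133.8 without WT replicate 3. For Fkbp5 it was -51.4 (HOM 66.2 ± 59.7, WT 117.6 ± 64.5, SD, n = 3 each, exact permutation p = 0.5), -16.7 without WT replicate 1 and -18.2 without HOM replicate 2. For Sgk1, 0 in HOM stood against 5.40 ± 5.49 in WT (SD, n = 3 each, exact permutation p = 0.4), or 2.61 in WT without WT replicate 3.

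**Figure D5:**
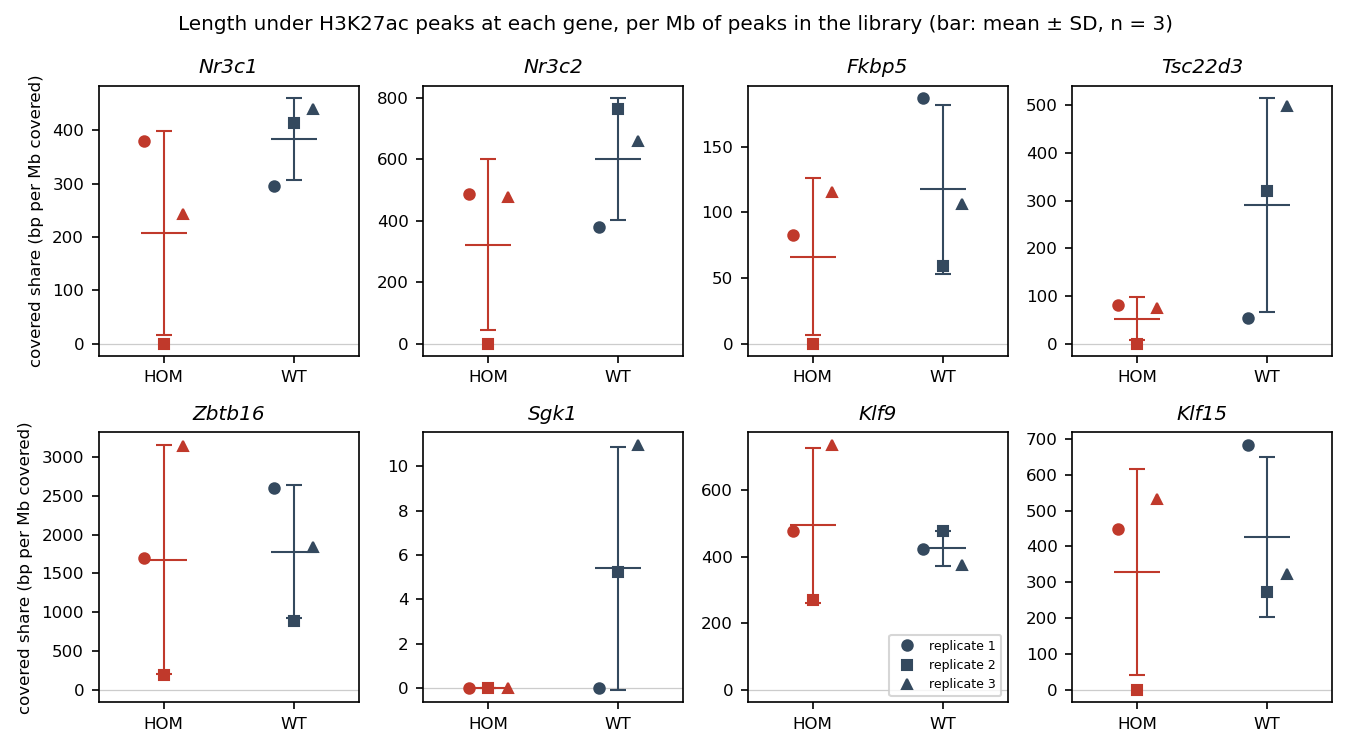
Covered share of each gene, in bp under peaks per Mb under peaks in the library, with a symbol per replicate, HOM (red) left of WT (dark blue), and bars for the mean ± SD of 3 libraries. The genotypes overlap in all 8 panels, whose vertical axes differ.

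Libraries with and without Y chromosome peaks gave different directions at several genes. Between HOM replicate 1 and WT replicate 1, the difference in covered share was 83.3 bp per Mb for Nr3c1, 106.9 for Nr3c2 and 29.0 for Tsc22d3. Among the other 4 libraries it was -305.4, -472.1 and -371.4 in the same order, so the sign turned. For Zbtb16 it was -906.3 and 300.2, for Klf15 -233.1 and -31.7, for Fkbp5 -104.1 and -25.0, for Klf9 52.6 and 76.8, and for Sgk1 0 and -8.10. The second set includes HOM replicate 2. With that library left out, its difference was 234.9 for Klf15 and 32.9 for Fkbp5, so these signs turned as well. It was then 1776 for Zbtb16, 309.3 for Klf9, -183.9 for Nr3c1, -233.3 for Nr3c2, -333.7 for Tsc22d3 and -8.10 for Sgk1. With 1 library of each genotype in the first set, the difference between the sets was not tested.

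By covered share, the first and last of the 8 genes were the same in 5 libraries, and the places between them changed. Zbtb16 came first in each library other than HOM replicate 2, where Klf9 came first. Sgk1 came last in each library other than HOM replicate 2, where 6 of the genes had no peak. Nr3c2, Klf9, Klf15 and Nr3c1 took places 2 to 6 in HOM replicates 1 and 3 and the WT libraries, and changed places between them. Klf15 was second in WT replicate 1 and sixth in WT replicates 2 and 3. Tsc22d3 was at place 7 in HOM replicates 1 and 3 and WT replicate 1, at 5 in WT replicate 2 and at 3 in WT replicate 3. In WT, Nr3c2 averaged 600.7 ± 198.0 bp per Mb (SD, n = 3), Klf15 426.6 ± 223.5, Klf9 425.4 ± 52.1 and Nr3c1 383.1 ± 76.7, so neighbours in this order do not differ beyond their spread.

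Other genes of the pathway had peaks in most libraries, and few of them in HOM replicate 2. Of 18 genes for chaperones, steroid enzymes and coregulators of the receptors, 16, 1 and 13 had a peak in HOM replicates 1, 2 and 3, and 14, 17 and 17 in WT replicates 1, 2 and 3. Over all genes these shares were 47.1%, 3.13% and 25.2% in HOM and 31.7%, 57.4% and 66.1% in WT. Hsd11b1, which regenerates active glucocorticoid, had a peak in all 6 libraries, and H6pd, which supplies its cofactor, and the coactivator gene Ncoa3 in 5 each. Hsd11b2, which inactivates glucocorticoid in mineralocorticoid target tissue, had a peak in none. A lower covered share in all HOM than in all WT libraries was found at 5 of 17 genes with a peak, beside 9.28% of all genes. Among them were Hsp90aa1, Ncoa2, Crebbp and Med1, and these 5 also had it without HOM replicate 2. Part of this rests on absent peaks. Crebbp had 0 bp in every HOM library, against 194, 401 and 2688 bp in WT replicates 1, 2 and 3. Hsp90aa1 and Med1 had 0 bp in HOM replicates 2 and 3, while Ncoa2 had 2578 and 670 bp in HOM replicates 1 and 3. None of the 5 differences can pass 0.05, since the smallest p is 0.1. The list's median difference was -50.9 bp per Mb, and -30.0 without HOM replicate 2, beside -11.6 and -5.52 over all genes.

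Of 22 other glucocorticoid targets, 16, 2 and 13 had a peak in HOM replicates 1, 2 and 3, and 14, 18 and 18 in WT replicates 1, 2 and 3. At least 5 libraries had a peak at 13 of the 22, beside 21% of all genes. Ptgds, a prostaglandin synthase gene, and Fam107a had a peak in all 6 libraries, and Fbxo32, a ubiquitin ligase gene of muscle wasting, in 5. The liver targets Tat and Pck1, and Il1r2, had none. Cdkn1a and Foxo1 were lower in all HOM libraries, 2 of 19 genes with a peak, which is near the background of 9.28%. Without HOM replicate 2, Per1, Angptl4 and Ptgds were higher in both HOM libraries than in every WT library, beside 4.48% of all genes. The median difference of the list was -19.0 bp per Mb, and -1.74 without HOM replicate 2.

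Of 10 mineralocorticoid targets, 7 had a peak in at least 5 libraries, beside 21% of all genes. The ubiquitin ligase gene Nedd4l had a peak in all 6, and the deubiquitinase gene Usp2 in 5. Scnn1b and Scnn1g, subunits of the epithelial sodium channel, had none, and Scnn1a had 753 bp in WT replicate 3 alone. No gene of this list was separated by genotype over the 6 libraries. The list's median difference was -50.8 bp per Mb over all libraries and turned to 13.4 without HOM replicate 2.

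Among relatives of the receptors, Esrrb had a peak in all 6 libraries and Esrrg and Esr2 in 5 each. The progesterone receptor gene Pgr, a close relative of Nr3c1 and Nr3c2, had no peak in any library, and Esr1 had 162 bp in WT replicate 3 alone. Of 15 other Krüppel-like factor genes, 5 had a peak in at least 5 libraries, beside 21% of all genes. At Klf13 peaks covered 12874, 77 and 5780 bp in HOM replicates 1, 2 and 3, and 4384, 18970 and 38435 bp in WT replicates 1, 2 and 3, more than at Klf9 in 5 of the libraries, in a longer window. Klf6 had a peak in all 6 libraries, Klf7 in 5, and Klf8 and Klf14 in none. Klf16 was lower in all HOM libraries, 1 of 13 genes with a peak, which is near the 9.28% of all genes. Without HOM replicate 2, Klf6 and Klf13 were higher in HOM, beside 4.48% of all genes. The median difference was -52.6 bp per Mb for the receptor relatives, and -12.0 without HOM replicate 2. For the Krüppel-like genes it was -18.0, and -9.00 without HOM replicate 2, beside -11.6 and -5.52 over all genes.

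The list of 7 paralogs of the other genes gave a mixed picture. At Tsc22d4 peaks covered 6348, 120 and 1783 bp in HOM replicates 1, 2 and 3, and 2065, 10524 and 14960 bp in WT replicates 1, 2 and 3, and its share was higher in all HOM than in all WT libraries. This was 1 of 7 genes, beside 0.257% of all genes. Tsc22d3 showed no such order. In HOM replicate 2 the share of Tsc22d4 rests on 120 bp, and by covered length in bp 0 genes were higher in all HOM libraries. Tsc22d1 and Fkbp4 had a peak in 5 libraries each. Without HOM replicate 2, Tsc22d1 and Tsc22d4 were higher in both HOM libraries than in every WT library, 2 of 7 genes beside 4.48% of all genes. Of the kinases related to Sgk1, Sgk3 had a peak in 4 libraries and Sgk2 in 2. The median difference over these 7 genes was -24.9 bp per Mb, and -13.0 without HOM replicate 2.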

How the data were processed

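The authors deposited 1 list of called peaks per library. BWA, MACS2 and mm10 are named in the submitters' processing notes, with versions and settings not given in the sources used here. In the deposited lists a peak has a score and a fold enrichment ratio, beside p-values and q-values on a −log10 scale. These belong to the authors and serve here to rank or filter peaks within a list. The lists hold no counts, so depth is unknown, and a weak list misses peaks.

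Peaks sharing at least 1 bp with a gene and 20 kb on each side (RefSeq table, GRCm38.p6) were assigned to it. All 120 listed symbols matched. A few listed genes are not reported here by name. Covered length was taken from united peaks, divided by the Mb covered in that library. Domains joined peaks over gaps up to 10 kb. Differences were tested by two-sided exact permutation over 20 assignments, with Benjamini-Hochberg adjustment over all genes with a peak. All 8 genes were described, and of each list the 3 most often marked and up to 4 without a peak. Genes separated by genotype, and those compared in extent, were added after their values were seen. Members, lists and rules were chosen with earlier results of these data known. Window coverage, stitching and the genotype difference gave 0 mismatches over 200 trials when tested on simulated data. Alternatives were stronger peaks, equal list lengths, a −log10 q of 5, flanks of 10 and 50 kb, summits, bp, the replicate block, gaps of 5 and 20 kb and each library left out, and, added after the data were seen, libraries with or without Y peaks. Scripts ran in Python 3.11.15 with scipy 1.17.1, pandas 2.3.3 and numpy 2.4.6, and figures were drawn with matplotlib 3.10.9.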

Additional observations from a re-analysis of the deposited data

How the results depend on the processing

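Under the alternatives run no genotype difference at the 8 genes can pass 0.05, and mainly directions are compared here. With lists limited to 1462 peaks, Fkbp5 and Klf15 had 0 in HOM, against means of 681.0 and 494.8 bp per Mb in WT. Every HOM library then lay below every WT library (exact permutation p = 0.1 each), as at 97 genes in all. The same order held at Nr3c1 without HOM replicate 1 (3330 genes in all), and at Tsc22d3 and Sgk1 without WT replicate 1 (5611 genes in all). Fkbp5 and Sgk1 kept their direction, or gave 0, in all alternatives named above, but Fkbp5 was 32.9 between HOM replicate 3 and WT replicates 2 and 3. The Zbtb16 difference turned positive with the stronger 50% of each list (75.6 bp per Mb), with lists at 15184 peaks and HOM replicate 2 left out (625.2), at a −log10 q of 5 (174.6) and among libraries without Y peaks (300.2), and ran from -834.9 to 641.0 with 1 library left out. Klf9 turned negative with lists limited to 1462 peaks (-984.0) and as covered length (-9059 bp), and ran from -52.0 to 180.5 with 1 library left out. Klf15 ran from -201.6 to 65.0 with 1 library left out, and was -494.8 with lists limited to 1462 peaks and -233.1 between the libraries with Y peaks. Tsc22d3 was 7.02 at equal length without HOM replicate 2, and 29.0 between the libraries with Y peaks, where Nr3c1 was 83.3 and Nr3c2 106.9. The causes were not tested.

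Genes lower in all HOM libraries numbered 1374, and 97 with lists limited to the shortest, 771 at equal length without HOM replicate 2, 578 at a −log10 q of 5 and 818 by covered length, where the denominator is gone. Genes higher in all HOM libraries numbered 38, and 13, 616, 19 and 0 in the same order, and 17 with the stronger 50% of peaks. Leaving out 1 library gave 1424 to 5611 lower and 47 to 663 higher, with fewer libraries to separate. Deviations of libraries with equal replicate numbers correlated at -0.0592, -0.0535 and -0.249, and those with unequal numbers at -0.0951 to 0.197. The deviations of the 3 libraries of a genotype sum to 0, so these values cannot decide whether libraries were paired. With the replicate block the differences are equal by construction (Zbtb16 -102.0), with exact sign-flip p from 0.5 to 1 and 0.25 the smallest possible. Stitching over 20 kb gave a mean Klf15 domain of 34.4 kb over the 6 libraries, against 14.1 kb at 10 kb, and the other 7 genes moved by less than their spread. Windows with at least 1 arm of the response element numbered 4, against 1 with the full motif.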
